A study of Mus musculus with 16 samples.

Results

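Clade B serpins are protease inhibitors that mostly stay inside the cell that makes them. This group of genes was taken as every row of the deposited mouse gene table whose symbol is Serpinb followed by a number, which gave 28 of the table's 45777 genes. Of these, 22 had a summed read count of 30 or more over 6 libraries and were tested, and 6 did not. The libraries hold polyA RNA of ear skin from wild-type C57BL/6 mice that received MC903 (calcipotriol, a vitamin D analogue used to induce inflammation resembling atopic dermatitis) at 50 µM in 20 µL of ethanol on both ears every day for 10 days. In the anti-OSM group, 3 libraries came from mice that also received intradermal antibody against the cytokine oncostatin M, 20 µg for each mouse on alternate days. In the anti-Ly6G group, 3 libraries came from mice that received intraperitoneal antibody against the neutrophil surface protein Ly6G, 200 µg for each mouse, 2 days before MC903 was applied and 1 and 4 days afterwards. The labels name no isotype antibody and no age for these mice. The other 10 of the 16 samples, control ears and ears with MC903 alone, were not analysed here, so a difference between the antibody groups does not say which of them moved. Antibody, route and schedule differed together and cannot be told apart.

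A serpin presents an exposed loop that a protease mistakes for a substrate. When the loop is cleaved, an inhibitory serpin changes shape and traps the protease by a covalent bond. Clade B members lack the classical signal peptide of most serpins, and several are made in stratified epithelia, where they are known to act on serine proteases and on cysteine cathepsins. In the mouse the genes lie in clusters on chromosomes 1 and 13. The mouse Serpinb1, Serpinb3, Serpinb6 and Serpinb9 genes have several paralogues each, where human has fewer.

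Few members of the clade passed the test between the antibody groups, and not passing does not mean unchanged. With anti-OSM, Serpinb6c was lower and Serpinb13 was higher, and the other 20 tested members did not pass the test. That test was edgeR's quasi-likelihood test on read counts, with p-values adjusted by Benjamini-Hochberg over all 21631 genes tested and a threshold of 0.05. The 1 higher member of 22 is 4.55%, beside 4.89% of all tested genes, and the 1 lower member is likewise 4.55%, beside 5.39%. In either direction 10.3% of all tested genes passed, and the members' shares are near the background. The median log2 fold change (anti-OSM over anti-Ly6G) of the 22 members was -0.02, and that of all tested genes 0.01. The fold changes were positive for 11 members and negative for 11. Read counts scaled by library size (CPM) did not overlap between the groups for 5 of the 22 members, or 22.7%, beside 33.4% of all tested genes.

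Total read counts were 52163179 to 59063578 in the anti-OSM libraries and 59381146 to 64122588 in the anti-Ly6G libraries, and a floor of 3 counts is 0.0466 to 0.0565 CPM. Markers of epidermis were abundant in every library: 6 basal keratinocyte genes summed to 9671 to 12095 CPM with anti-OSM and 14182 to 14880 CPM with anti-Ly6G. In bulk skin, fewer cells of a type and less RNA per cell cannot be told apart. Nothing in the labels ties each library to its own mouse, and the p-values therefore reflect library-to-library spread, which may be technical.

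A promoter motif of the AP-1 type was found in members on chromosome 1 only, and not in all of them. Promoters of 20 tested members were found in RefSeq sequence of GRCm38.p6, as windows from 250 bases before to 50 bases after an annotated start. Serpinb13 and Serpinb1a had no entry. The AP-1 type motif TGANTCA, which reads the same on both strands, was found in 8 of 25 such windows (32.0%), beside 7.81% of all 32851 promoter windows of the same length. These windows belong to 7 members, all of them among the 11 on chromosome 1 with a promoter, and 0 of 9 members on chromosome 13 had a match. The chromosome 1 members without a match were the paralogues Serpinb3a, Serpinb3b, Serpinb3c and Serpinb3d. For Serpinb1b, Serpinb6b, Serpinb6c and Serpinb9 on chromosome 13 and Serpinb2 on chromosome 1, every window lies inside the RefSeq span. Sequence before the 5′ end of these spans was not searched, which limits the contrast between the chromosomes. The 7.81% is a share of windows and the 0 of 9 a count of members, some with more than 1 window. At so low a share, 0 of 9 members is still near the background. Paralogues share sequence and are not independent, and a split by chromosome was not tested. The STAT type motif TTCNNNGAA, which also reads the same on both strands, was found in 3 windows of 2 members (12.0%), beside 8.30% of all windows. These members were Serpinb2 and Serpinb6a. Matches of the motifs did not overlap each other in any member promoter. A match describes letters only and is neither a bound site nor a cause. The AP-1 type matches are shown in capitals with 27 bases on each side, 5′ to 3′ on the plus strand of chromosome 1. They are printed since 7 chromosome 1 members share them and no chromosome 13 member has one in the windows searched.
Serpinb5, chr1:106861008-106861068, match starting at -140 from the start: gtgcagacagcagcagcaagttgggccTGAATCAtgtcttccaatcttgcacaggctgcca
Serpinb12, chr1:106934377-106934437, match starting at -45: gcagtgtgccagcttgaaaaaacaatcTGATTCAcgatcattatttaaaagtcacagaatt
Serpinb11, chr1:107362211-107362271, match starting at -76: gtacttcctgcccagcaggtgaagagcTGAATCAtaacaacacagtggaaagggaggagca
Serpinb7, chr1:107422617-107422677, match starting at -45: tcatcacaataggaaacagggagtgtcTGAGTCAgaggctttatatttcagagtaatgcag
Serpinb2, chr1:107511302-107511362, match starting at -94: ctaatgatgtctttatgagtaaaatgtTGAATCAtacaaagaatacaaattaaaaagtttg
Serpinb10, chr1:107528922-107528982, match starting at -54: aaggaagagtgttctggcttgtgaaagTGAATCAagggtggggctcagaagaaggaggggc
Serpinb8, chr1:107589956-107590016, match starting at -23: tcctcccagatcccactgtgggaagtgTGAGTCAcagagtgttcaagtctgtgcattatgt
Serpinb11 had a further match at -181 and Serpinb8 at 13. Serpinb2 has 2 annotated starts whose windows hold the same match. Serpinb12 has a further window, which holds no match. None of these 7 members passed the test between the antibody groups.

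Serpinb6c, the member with the clearest difference, had neither motif in the window of its annotated start. The full window is shown because it is the only called member with an entry. This window lies inside the RefSeq span of the gene, whose 5′ end is at 33905726, and sequence before that end was not searched. The gene lies on the minus strand of chromosome 13 in GRCm38.p6. Its sequence is printed in the direction of transcription, the last 50 bases following the annotated start.
Serpinb6c, chr13:33905142-33905441: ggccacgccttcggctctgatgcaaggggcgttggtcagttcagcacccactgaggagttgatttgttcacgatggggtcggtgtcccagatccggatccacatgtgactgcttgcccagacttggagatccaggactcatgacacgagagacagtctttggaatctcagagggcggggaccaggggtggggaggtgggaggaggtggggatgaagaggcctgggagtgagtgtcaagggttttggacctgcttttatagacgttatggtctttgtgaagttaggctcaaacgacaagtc

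Levels between members were compared in TPM, the transcript abundances scaled by gene length and library size that the authors deposited. Summed over the 28 members they were 1614, 1518 and 1573 TPM with anti-OSM and 1806, 1635 and 1644 TPM with anti-Ly6G, so the groups did not overlap, with no test made on this sum. In reads, the clade held 0.154%, 0.146% and 0.152% of the anti-OSM reads and 0.174%, 0.150% and 0.152% of the anti-Ly6G reads, which do overlap. The 6 most abundant members made up 80.0% to 82.5% of the clade's TPM in anti-OSM libraries and 82.6% to 83.5% in those with anti-Ly6G.

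**Figure D1:**
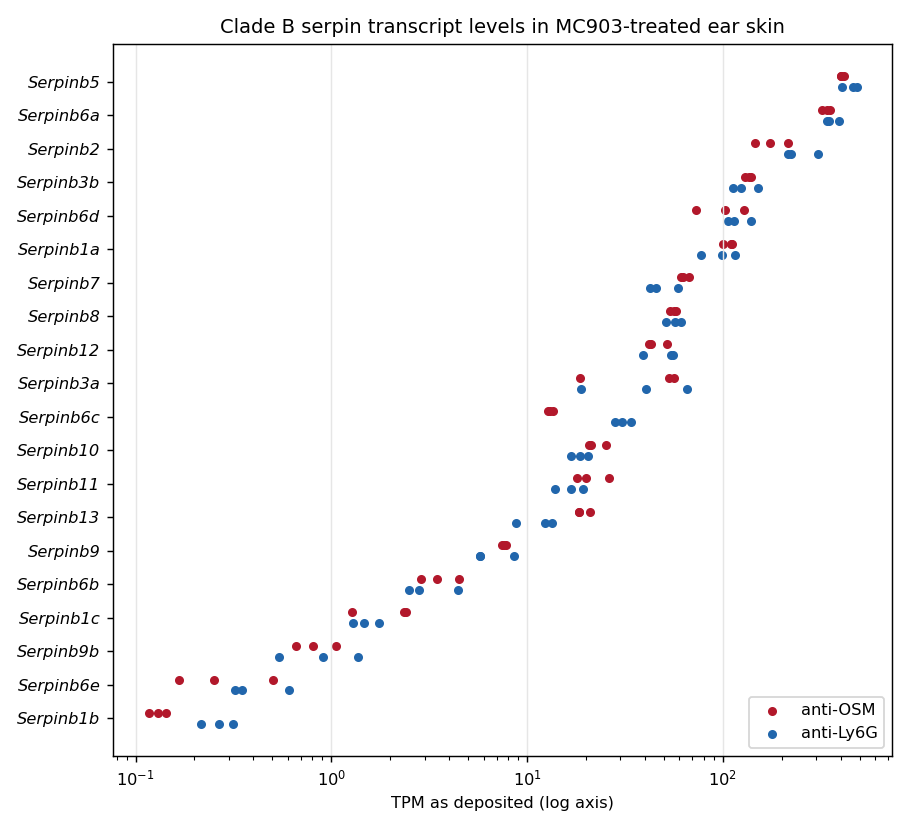
Deposited TPM on a log axis for the 20 tested clade B serpins with a value above 0 in every library, ordered by mean, with the 3 anti-OSM libraries (red, upper) and the 3 anti-Ly6G libraries (blue, lower) of each gene as points. Serpinb5 leads at 402 to 485 TPM, and the points of the groups are apart for Serpinb6c, Serpinb7, Serpinb10, Serpinb13 and Serpinb1b.

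Of the 22 tested members, 6 averaged at least 100 TPM over the libraries, 8 lay between 10 and 100 TPM, 3 between 1 and 10 TPM and 5 under 1 TPM. Serpinb5 (maspin, a clade B protein of epithelia that does not inhibit proteases) averaged 407 ± 9.08 TPM with anti-OSM and 451 ± 40.4 TPM with anti-Ly6G (SD, n = 3 each, here and below). Serpinb6a, whose human counterpart inhibits cathepsin G, followed with 339 ± 14.4 and 360.0 ± 28.7 TPM in anti-OSM and anti-Ly6G libraries. The ranges of these genes over the 6 libraries did not overlap with each other, and Serpinb6a did not overlap with the next gene, Serpinb2. The members from Serpinb2 to Serpinb1a overlapped with their neighbours in the order, and so did those from Serpinb7 to Serpinb13. A gap without overlap lay between Serpinb1a (77.0 to 115 TPM) and Serpinb7 (42.7 to 67.2 TPM), and another between Serpinb13 and Serpinb9, the granzyme B inhibitor, at 5.72 to 8.59 TPM. Serpinb9, Serpinb6b and Serpinb1c were likewise apart from each other, and the members below Serpinb1c overlapped with their neighbours. Exons of Serpinb6a overlap Nqo2 and Ripk1 on the opposite strand, and strand use in counting is unknown, so its level is uncertain.

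At the low end, Serpinb9c had 2 reads in all, both in anti-Ly6G replicate 3, and Serpinb9d, Serpinb9e, Serpinb9f, Serpinb9g and Serpinb9h had 0 in every library. For reads assigned to a gene, a count of 0 allows up to 3 reads, or up to 0.0565 CPM, which covers counting error only. These paralogues share much sequence: 78.7% of the 50-base words of Serpinb9f, 54.8% of Serpinb9g, 30.8% of Serpinb9d, 28.4% of Serpinb9e and 18.0% of Serpinb9c occur in other genes' transcripts, and Serpinb9h was not in the GENCODE set. Since the handling of shared reads is unknown, the limit does not bound the transcript level of these genes. Just inside the minimum of 30 reads, Serpinb3c had 0, 0 and 11 reads in anti-OSM libraries and 14, 8 and 0 in anti-Ly6G libraries. Serpinb3d had 0, 5 and 6 reads with anti-OSM, against 14, 6 and 17 with anti-Ly6G, and the 95% intervals of the log2 fold change were -4.10 to 2.35 for Serpinb3c and -3.41 to 0.22 for Serpinb3d. Serpinb1b had 7, 8 and 7 reads with anti-OSM against 19, 12 and 17 with anti-Ly6G. Its groups did not overlap, but the difference of -0.98 on the log2 scale did not pass (SE 0.40, edgeR adjusted p = 0.155).

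Serpinb6c, a mouse paralogue of Serpinb6a (gene ID 97848, chromosome 13, 33879816 to 33905726), had 9.08, 8.74 and 9.04 CPM with anti-OSM and 20.9, 22.1 and 18.5 CPM with anti-Ly6G. All 3 anti-OSM libraries lay far below all 3 anti-Ly6G libraries, and within each group the values were close. The group means were 8.95 ± 0.182 and 20.5 ± 1.85 CPM in anti-OSM and anti-Ly6G libraries. The log2 fold change was -1.19 (SE 0.09, 95% interval -1.41 to -0.98, edgeR adjusted p = 0.00125), so the gene was 2.29-fold lower with anti-OSM. It passed without each library in turn, at -1.26 to -1.14.

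The other 4 Serpinb6 genes, all on chromosome 13, did not pass. Serpinb6a, the next gene of the clade along the chromosome, had 244, 236 and 256 CPM with anti-OSM and 255, 235 and 277 CPM with anti-Ly6G, values that overlap, with a log2 fold change of -0.06 (95% interval -0.24 to 0.12). Serpinb6d had 86.1, 70.5 and 50.9 CPM with anti-OSM and 97.1, 74.5 and 70.7 CPM with anti-Ly6G, at -0.22 (-0.69 to 0.25). Both intervals exclude a difference of the size seen in Serpinb6c. Serpinb6b (0.18, -0.40 to 0.77) and the scarce Serpinb6e (-0.38, -1.47 to 0.72) had wider intervals.

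**Figure D2:**
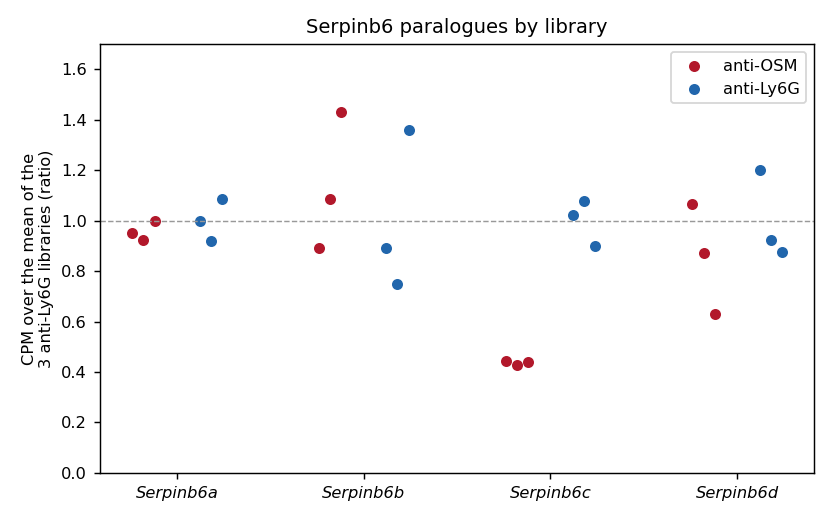
CPM of 4 Serpinb6 paralogues in each library, divided by the gene's mean over the 3 anti-Ly6G libraries, with anti-OSM in red to the left and anti-Ly6G in blue to the right. Serpinb6c lies at 0.427 to 0.443 in the anti-OSM libraries, while the groups overlap for Serpinb6a, Serpinb6b and Serpinb6d.

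Within the Serpinb6 genes, the share of Serpinb6c differed between the groups. Of their summed TPM, Serpinb6c made up 2.80%, 2.90% and 2.98% in anti-OSM libraries and 5.86%, 6.94% and 5.26% in those with anti-Ly6G, with no overlap. Serpinb6a made up 70.3%, 72.9% and 79.4% in anti-OSM libraries and 66.7%, 69.2% and 73.8% in those with anti-Ly6G, and overlapped. The 5 genes added to 1 row before the fit gave -0.14 (SE 0.07, edgeR adjusted p = 0.256). Paralogues can exchange reads: 9.92% of the 50-base words in GENCODE transcripts of Serpinb6c occur in another gene's transcripts, 3.28% in those of Serpinb6b. Of the 50-base words of Serpinb6a, 25.1% occur in another gene's transcripts, 12.5% in those of Nqo2. The sources used here do not say how such reads were assigned, so the levels of Serpinb6c and Serpinb6a and the shares carry that uncertainty.

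Serpinb13 (gene ID 241196, chromosome 1, 106980984 to 107001195), whose human counterpart is a keratinocyte inhibitor of cathepsins L and K, had 14.1, 14.5 and 16.7 CPM with anti-OSM and 9.81, 10.1 and 6.66 CPM with anti-Ly6G. Every anti-OSM library lay above every anti-Ly6G library, and anti-Ly6G replicate 3 was the lowest. The log2 fold change was 0.77 (SE 0.16, 95% interval 0.40 to 1.14, edgeR adjusted p = 0.0244), or 1.71-fold higher with anti-OSM. It missed the threshold in edgeR when 1 of 4 libraries was left out, at log2 fold changes of 0.69 to 0.85. The adjusted p was then 0.0633, 0.0632 and 0.0901 for anti-OSM replicates 1, 2 and 3, and 0.0521 for anti-Ly6G replicate 1. None of its 50-base words occurred in another gene's transcripts.

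**Figure D3:**
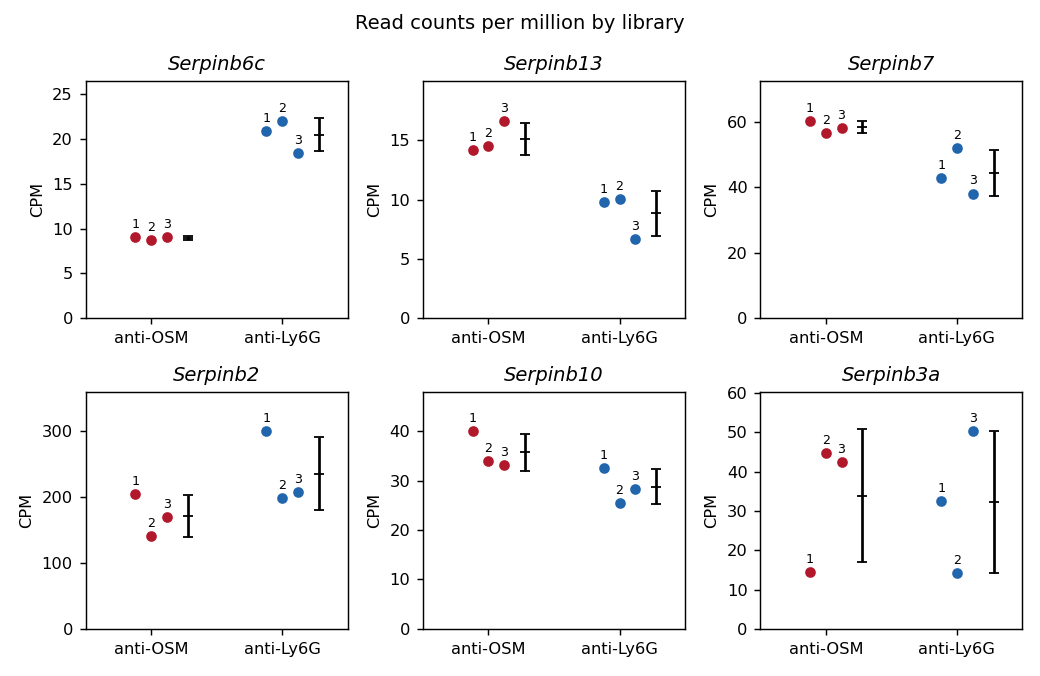
CPM by library for 6 clade B serpins, with anti-OSM (red) left of anti-Ly6G (blue), replicate numbers above the points and bars for the mean and SD of 3 libraries. Serpinb6c, Serpinb13, Serpinb7 and Serpinb10 do not overlap between the groups, while for Serpinb3a the lowest libraries are anti-OSM replicate 1 and anti-Ly6G replicate 2.

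Next to the called members were 3 well-counted genes of chromosome 1 whose unadjusted p was under 0.05 but whose adjusted p missed the threshold. Serpinb7, whose loss in humans causes a palmoplantar keratosis, had 60.3, 56.5 and 58.0 CPM with anti-OSM and 42.7, 51.9 and 38.1 CPM with anti-Ly6G. The groups did not overlap, and the log2 fold change was 0.40 (SE 0.11, edgeR adjusted p = 0.0541). It passed in 1 of 6 fits that each left out 1 library, with edgeR adjusted p up to 0.151 in the rest. That fit left out anti-Ly6G replicate 2, the library nearest the anti-OSM group (0.52, adjusted p = 0.0174). Leaving out the library that most opposes a difference widens it, so this pass adds no support. Serpinb10, a member best known from blood-forming cells, had 40.0, 34.0 and 33.2 CPM with anti-OSM against 32.6, 25.5 and 28.3 CPM with anti-Ly6G, also without overlap, at 0.31 (SE 0.11, adjusted p = 0.117). Serpinb2, plasminogen activator inhibitor type 2, which inhibits urokinase, had 204, 141 and 169 CPM with anti-OSM and 299, 198 and 208 CPM with anti-Ly6G. Its groups overlapped, since anti-OSM replicate 1 lay between the anti-Ly6G libraries, and its log2 fold change was -0.46 (SE 0.19, adjusted p = 0.167). Serpinb2 and Serpinb10 are neighbours whose RefSeq spans do not overlap. In GENCODE, however, their exons overlap on the same strand, and Serpinb10 is typed there as a polymorphic pseudogene. Of the 50-base words of Serpinb2, 10.4% occur in GENCODE transcripts of Serpinb10, and 6.97% of those of Serpinb10 occur in Serpinb2. How such reads were assigned is unknown, so the levels of both genes are uncertain, above all that of the less abundant Serpinb10.

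The most abundant member, Serpinb5, had 493, 502 and 527 CPM with anti-OSM and 584, 579 and 493 CPM with anti-Ly6G. The groups overlapped through anti-Ly6G replicate 3, and the log2 fold change was -0.12 (95% interval -0.32 to 0.07, edgeR adjusted p = 0.398). Serpinb1a, whose human counterpart inhibits neutrophil elastase and cathepsin G, had 99.2, 89.8 and 95.5 CPM with anti-OSM and 89.9, 66.8 and 99.0 CPM with anti-Ly6G, at 0.15 (-0.15 to 0.46). Serpinb8, whose human counterpart inhibits furin, had an interval of -0.18 to 0.22, and Serpinb12, an inhibitor of trypsin-like proteases, of -0.44 to 0.23. For these 4 genes the intervals leave out a change of 1 on the log2 scale in either direction. Serpinb11 (0.38, -0.04 to 0.80) and Serpinb9 (0.22, -0.14 to 0.58) were on the positive side and did not pass. Serpinb9 passed in 1 of 6 fits that each left out 1 library, with edgeR adjusted p up to 0.744 in the rest. That fit left out anti-Ly6G replicate 3, its highest library (0.44, adjusted p = 0.0269), which by itself widens the difference. Serpinb1c (0.46, -0.16 to 1.08) and Serpinb9b (-0.11, -0.90 to 0.67) did not pass either and were under 3 CPM in every library.

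The Serpinb3 genes, mouse relatives of the human squamous cell carcinoma antigens, did not pass the test. Serpinb3b had 101, 111 and 110 CPM with anti-OSM and 122, 93.5 and 87.4 CPM with anti-Ly6G, at a log2 fold change of 0.08 (95% interval -0.20 to 0.36). Serpinb3a had 14.4, 44.7 and 42.5 CPM with anti-OSM and 32.6, 14.2 and 50.3 CPM with anti-Ly6G. Each group thus held 1 low library of Serpinb3a, and the highest library was 3.53 times the lowest. The coefficient of variation of Serpinb3a was 49.9% in anti-OSM libraries and 55.7% in those with anti-Ly6G, the highest in both groups among the 17 members with at least 300 reads. Its log2 fold change of 0.07 had a 95% interval of -1.38 to 1.51, which includes both -1 and 1. Of Serpinb3 TPM, Serpinb3a made up 12.5%, 28.8% and 27.9% in anti-OSM libraries and 21.0%, 13.2% and 36.5% in those with anti-Ly6G. Of the 50-base words of Serpinb3a, 15.0% occur in other genes' transcripts, and of those of Serpinb3b 14.7%, so both are uncertain in level, the more so as Serpinb3b shares exons with Serpinb3c in GENCODE. The 4 Serpinb3 genes added together gave 0.08 (edgeR adjusted p = 0.796).

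Spread within the groups was generally wider with anti-Ly6G. Over the 17 members with at least 300 reads, the median coefficient of variation of CPM was 8.98% in anti-OSM libraries and 18.5% in those with anti-Ly6G, and 14 of 17 members varied more among the anti-Ly6G libraries. For Serpinb9 it was 1.49% in anti-OSM libraries and 24.1% in those with anti-Ly6G. Well-counted genes of the whole table also differed more between anti-Ly6G libraries. Over at least 15925 genes, chi-square per gene was 26.2 to 35.5 between pairs of anti-OSM libraries and 52.8 to 68.0 between pairs of anti-Ly6G libraries. Chi-square per gene grows with read counts and is not a coefficient of variation. No coefficient of variation was taken over all genes, so the clade was not set against them on a like measure. The wider spread was described and not tested.

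By position, the signs of the fold changes were mixed on chromosome 1 and fell into runs on chromosome 13. The 12 chromosome 1 members, all tested, lie between 106861175 and 107608978 and had 7 positive and 5 negative log2 fold changes with a median of 0.04. The 10 tested of 16 chromosome 13 members, between 32842092 and 34002794, had 4 positive and 6 negative with a median of -0.09. In order along chromosome 13, the first 4 tested members were all positive, at 0.15 for Serpinb1a, 0.46 for Serpinb1c, 0.18 for Serpinb6b and 0.22 for Serpinb9. The next 6 were all negative, at -0.11 for Serpinb9b, -0.98 for Serpinb1b, -0.22 for Serpinb6d, -0.38 for Serpinb6e, -1.19 for Serpinb6c and -0.06 for Serpinb6a. Of these 10 only Serpinb6c passed the test in edgeR, and the order of signs was not tested. Some of the signs did not hold when 1 library was left out. Serpinb1a then reached -0.002, Serpinb6b -0.02 and Serpinb9b, at the break between the runs, 0.22. Serpinb13, the only called member on chromosome 1, lies between Serpinb12 (-0.11) and Serpinb3a (0.07), which did not pass. Also on chromosome 13, the 6 Serpinb9 paralogues from Serpinb9c to Serpinb9g lie next to each other with 2 assigned reads in all, subject to the shared sequence given above.

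**Figure D4:**
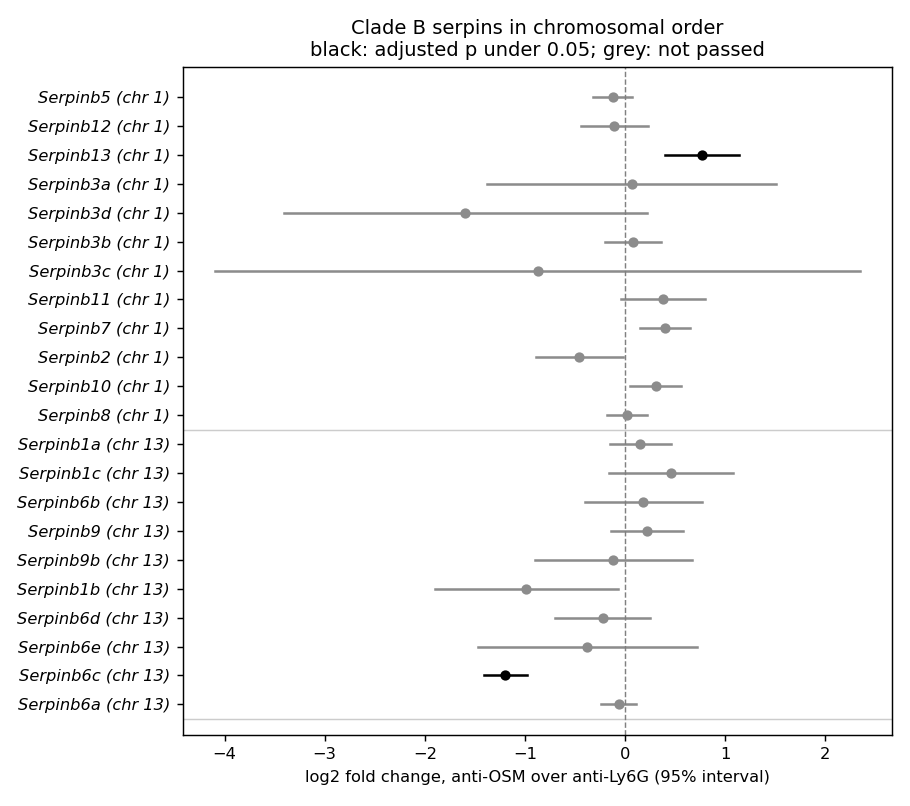
Log2 fold change of anti-OSM over anti-Ly6G with its 95% interval for the 22 tested clade B serpins, in order along chromosomes 1 (top) and 13 (bottom). Serpinb13 at 0.77 and Serpinb6c at -1.19 are the called members (black), the neighbours of Serpinb13 lie on both sides of 0 (-0.11 and 0.07), and those of Serpinb6c are both negative (-0.38 and -0.06).

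Other serpins and the proteases that clade B members act on gave the setting of these values. Beside the counts for these lists, 4.89% of all tested genes were higher with anti-OSM and 5.39% lower. Of 38 serpin genes of the other clades, 27 were tested, of which 3 were higher with anti-OSM, 1 was lower and 23 did not pass, with a median log2 fold change of 0.24. Serpina9 was lower at 32.6 ± 5.29 CPM with anti-OSM and 99.4 ± 20.6 CPM with anti-Ly6G (-1.61, SE 0.17, edgeR adjusted p = 0.00392). Serpinf1, the gene of pigment epithelium-derived factor, was higher at 0.38 (adjusted p = 0.0132), as were Serpina3h at 0.44 (0.0145) and Serping1, the C1 inhibitor gene, at 0.34 (0.0390).

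Of 23 listed proteases and partners, 20 were tested, of which 4 were higher, 2 lower and 14 did not pass, with a median of 0.20. The shares over all tested genes were 4.89% higher and 5.39% lower. The mast cell chymase genes Mcpt4 (0.65, edgeR adjusted p = 0.00456) and Cma1 (0.79, 0.00473) and the cathepsin S gene Ctss (0.91, 0.0307) were higher, and the epidermal kallikrein gene Klk8 was lower (-0.73, 0.00690). Mcpt4 and Cma1 are also mast cell markers. Of 26 other listed protease inhibitors, not all of them particular to epidermis, 23 were in the table. All 23 were tested, with 0 higher, 5 lower and 18 not passing and a median of -0.36. Those lower included A2m at -1.11 (adjusted p = 0.00422), Slpi at -1.01 (0.00952), Cst6 at -0.36 (0.0208) and Spink5 at -0.60 (0.0247).

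Markers of several cell types differed between the groups beside the called members. The counts stand beside 4.89% of all tested genes higher with anti-OSM and 5.39% lower. Of 9 activated keratinocyte markers 5 were lower with anti-OSM and 0 higher, and their sum was 2375 to 4602 CPM with anti-OSM against 6547 to 9901 CPM with anti-Ly6G. Of 6 hair follicle markers 2 were lower and 0 higher, with sums of 94.7 to 121 CPM against 368 to 712 CPM. Of 8 differentiated keratinocyte markers 1 was higher and 1 lower, and the sums overlapped at 14357 to 16646 CPM and 13604 to 20578 CPM in anti-OSM and anti-Ly6G libraries. Of 8 macrophage and monocyte markers 4 were higher and 0 lower, with sums of 2551 to 3095 CPM against 1499 to 2242 CPM. Of 4 skeletal muscle markers 3 were lower and 0 higher, at 1414 to 1700 CPM against 2228 to 2401 CPM. Of 8 neutrophil markers 6 were tested and 0 passed, with sums of 69.3 to 124 CPM against 51.5 to 81.0 CPM. Of the basal keratinocyte markers 2 of 6 were lower and 0 higher. With anti-OSM, 4 of 6 mast cell, 5 of 6 dendritic cell, 2 of 4 tested eosinophil and 1 of 4 fibroblast markers were higher and 0 were lower, and 0 of 7 cytotoxic lymphocyte markers passed. No marker in these lists had 0 reads in every library. The part of these cell types in the differences of Serpinb6c and Serpinb13 between the groups was not tested.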

How the data were processed

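Per the file headers, the deposited table holds read counts, FPKM and TPM by gene and library. The deposited counts are unnormalized and were the values tested. The TPM values deposited by the authors were used to compare levels between genes, and the FPKM values deposited by the authors were not used. The submitters' processing notes name Trimmomatic 0.38, HISAT2 2.1.0, StringTie 2.1.3b and edgeR 3.40.2, and mm10 among the builds. Read assignment and strand use are not given in the sources used here.

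All genes with a summed count of at least 30 were fitted with edgeR 4.0.16 in R 4.3.3 (TMM scaling, robust quasi-likelihood F-test, 2-sided, no covariate), anti-OSM over anti-Ly6G. Each SE is the absolute log2 fold change over the square root of F. CPM use TMM-scaled totals. The fit was tested on simulated data, where changes were set in genes with a summed count of at least 300. It recovered 48% of 1.5-fold changes and 92% of 2-fold changes there, so small differences can be missed. The simulation gave 177 calls in 21302 genes, a smaller share than in the data. Its adjusted threshold was thus stricter, and recovery in the data can differ. No pair of libraries within a group agreed within sampling noise (chi-square per gene of at least 26.2). Floors cover counting error only. Alternatives were other scalings, filters, DESeq2 1.42.0, limma-voom 3.58.1, a non-robust fit, a replicate block, paralogues summed and each library left out.

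The members and gene lists were chosen with earlier results of these data known. All members are named, with every library's value for called members and the 6 most abundant by TPM. Of each of the 3 other gene lists the 4 genes with the smallest p are named, and cell type marker lists are given by counts and sums. The per-library values of other members, the motif windows of members that did not pass, and the genes named only in the closing section were chosen after their values were seen. Positions are from RefSeq on GRCm38.p6.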

Additional observations from a re-analysis of the deposited data

How the results depend on the processing

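Serpinb6c passed at -1.26 to -1.14 under every alternative in which it was tested, and Serpinb13 passed in all but 4, each leaving out 1 library. Of 346 member values under alternatives, 333 kept their call. The number of members higher was 2 in place of 1 with total counts only, DESeq2, filterByExpr, a summed count of 300 or the replicate block, and 0 to 2 without each library. Serpinb7 was the added member, except in the block, where it was Serpinb10, and without anti-Ly6G replicate 3, where it was Serpinb9. The number lower was 2 with DESeq2 or the block, which added Serpinb2, 1 without each library, and 0 with paralogues summed, where Serpinb6c has no row of its own. Serpinb2 had an adjusted p of 0.0426 in DESeq2 and 0.0190 with the block, and Serpinb10 of 0.0486 with the block. Labels give no pairing beyond the replicate number, and same-numbered libraries' deviations correlated at 0.0276, 0.0412 and 0.0888 over 21631 genes, and not every library correlated best with its own number, so the numbers were not taken as pairs.

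Over all genes, 1057 were higher and 1166 lower. DESeq2 called 1629 higher, and leaving out a library gave 176 to 1523 higher and 381 to 1364 lower. The number higher was 253, 398 and 176 without anti-OSM replicates 1, 2 and 3, and 428 and 499 without anti-Ly6G replicates 1 and 2. The number lower was 381, 452 and 402 without those anti-OSM replicates, and 602 and 708 without those anti-Ly6G replicates. With the block, 1213 were higher and 1177 lower. Members under 1 TPM, and Serpinb3a through its spread, are limited to large changes.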

Other observations

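The low libraries of Serpinb3a, anti-OSM replicate 1 and anti-Ly6G replicate 2, were also the lowest of their groups for 2 genes named after their values were seen. How many of all tested genes share these lowest libraries was not counted, so these 2 genes show no tie to Serpinb3a. Stfa3, a stefin gene whose protein inhibits cysteine proteases, had 74.8, 175 and 182 CPM with anti-OSM and 209.7, 104 and 232 CPM with anti-Ly6G. S100a9, which encodes a calprotectin subunit, had 20.1, 59.9 and 47.8 CPM with anti-OSM and 41.1, 28.8 and 54.6 CPM with anti-Ly6G. Serpinb3b, a paralogue in the same cluster, was lowest of its group in anti-OSM replicate 1, at 101 CPM, but not in anti-Ly6G replicate 2, at 93.5 CPM. None of these genes passed the test between the groups in edgeR (adjusted p 0.665 for Stfa3 and 0.966 for S100a9).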
